A study of Mus musculus with 26 samples.

Results

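The response described here is that of tumour endothelium to 24 h of interferon gamma (IFNγ) made by the tumour cells around it. It was read from 5 microarrays, 3 taken after 24 h and 2 at 0 h, of the 26 arrays and 9 groups in the whole series. Both groups were chosen by their sample labels alone. J558L, a mouse plasmacytoma line, carried an inducible gene for an IFNγ-GFP fusion (J558L-IFNγ-GFP-IND) and was grown to tumours of about 1 cm in female Rag-/- mice aged 4 to 6 months. These mice lack mature T and B cells, and the IFNγ receptor was present on all of their cells. In the 24 h group the fusion had been switched on for 24 h, and in the 0 h group it was not induced. Tumours were digested and 5000 to 15000 CD31+ and CD146+ cells were sorted from each, so CD31 and CD146 define the cells and are no result. The labels number the replicates without saying whether each came from its own mouse, so the p-values measure the spread between these arrays, which may in part be technical. The labels name no batch.

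Further arrays of the series served for the differences given at the end. The first were of kidney endothelium of mice carrying the same J558L-IFNγ-GFP-IND tumours (0 h, 3 arrays, and 24 h, 3 arrays). The others were of endothelium of MCA313 tumours in mice carrying PIG, Pdgfb-Cre and IFNγ-del, in which only endothelial cells carry the receptor, with MCA313-IFNγ-IND tumour cells uninduced or induced for 24 h to make IFNγ (0 h, 3 arrays, and 24 h, 2 arrays). These mice were also female and 4 to 6 months old, with tumours of about 1 cm.

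IFNγ binds a receptor of the chains IFNGR1 and IFNGR2, whose kinases JAK1 and JAK2 start the signal to the nucleus. A first wave of genes is induced through GAS elements, among them the transcription factor IRF1, which with partners drives further genes through interferon-stimulated response elements (ISRE). In endothelial cells IFNγ is known to raise antigen presentation, guanylate-binding and immunity-related GTPases and chemokines, and to restrain growth of the cells and of new vessels.

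Values are log2 expression per gene, the mean over all probe sets that the annotation gives to that gene alone. The medians of the 5 arrays lay between 6.42 and 6.46. The table held part of the array only: of 5109 genes, 1292, 1074, 1716, 789 and 210 lie on chromosomes 1, 10, 11, 12 and 13, and 2310 passed the filter on low values and were tested. Cxcl9, Cxcl10, the guanylate-binding proteins, Cdh5 and the class I and II histocompatibility genes were not analysed here. Pecam1, the gene of CD31, read 11.82 and 12.01 at 0 h and 11.77, 11.71 and 11.77 at 24 h. Its change of -0.17 ± 0.12 (SE) did not pass the test (adjusted p = 0.436). Icam2, Cd34 and Sox17, the other endothelial markers on the table, lay above the median of every array. Their changes were 0.12, 0.03 and 0.16, none past the test. Ifngr1, the ligand-binding chain of the receptor, was at 10.76 ± 0.04 (SD, n = 2) at 0 h and 10.56 ± 0.10 (SD, n = 3) at 24 h, a change of -0.21 (adjusted p = 0.343). Ifng itself lay between 4.19 and 4.36 in the 5 arrays, below every array median.

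After 24 h the endothelium carried more mRNA of interferon-inducible genes and less of genes for DNA replication and cell division. Of 2310 genes tested, 231 passed the test at an adjusted p of 0.05 (10%), with 120 higher (5.19%) and 111 lower (4.81%). Of the 120, 18 had passed the filter through the 24 h arrays alone. Of the 111, 20 had passed it through the 0 h arrays alone. The direction of these genes was largely fixed by the filter. The rises reached further: 47 genes rose by at least 1 on the log2 scale and 28 fell by as much, and 8 rose by at least 2 against 1 that fell. The median change was 0.89 among the rises and -0.78 among the falls. The 24 h and 0 h arrays did not overlap in 43.3% of all genes tested (18.1% higher, 25.2% lower), so separation alone is common here. Among the largest rises were Irf4, Ifi205, Slamf8, Sp140, Tnfsf18 and Ifi207, and among the largest falls Nts, Dtl, Sele, Top2a and Prim1. Leaving out one array changed the number of calls most when it was a 0 h array. When 0 h replicate 1 was left out, the count was 28 genes, 27 of them among the 231, and without 0 h replicate 2 it was 76. Without 24 h replicates 1, 2 and 3 it was 120, 103 and 190. Of 69 genes named below that passed the test, 16 passed in all 5 of these fits, and all 69 kept their sign in each. The 20 largest rises and 20 largest falls were named only without overlap, so their sign could not turn in these fits. Most other calls were named by smallest p, so the kept signs are no separate support. In sorted bulk RNA, fewer cells of a type and less RNA per cell cannot be told apart.

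**Figure D1:**
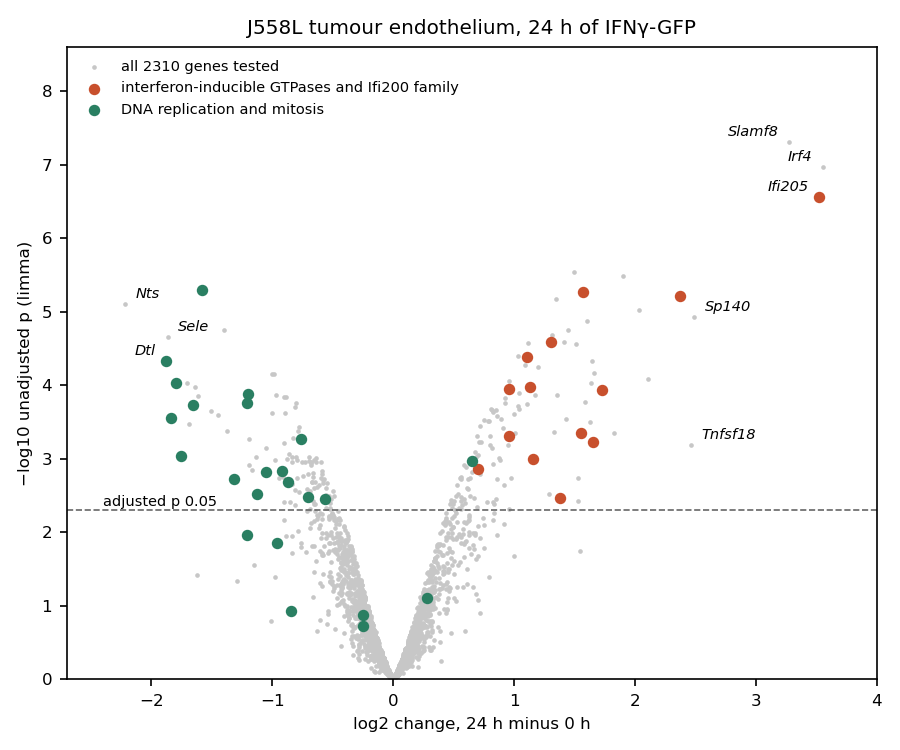
Log2 change (24 h minus 0 h, x axis) against minus log10 of the unadjusted limma p (y axis) for all 2310 genes tested, with the interferon-inducible GTPases and Ifi200 family in orange and the DNA replication and mitosis lists in green. Slamf8, Irf4 and Ifi205 stand highest on the right, and the dashed line marks an adjusted p of 0.05.

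Several of the genes that moved most can be shown with the stretch of DNA before their start. The following are the 250 bases upstream of the annotated start in RefSeq (GRCm38.p6), 5′ to 3′ on the gene's strand, for 6 of the 20 largest rises, shown because each holds a GAS (TTCNNNGAA) or ISRE (GAAA, any 2 bases, GAAA) match. Capitals mark every match on either strand to these or to TTTGAA, the core of the cell cycle homology region (CHR), or CCAAT, the CCAAT box.
Ifi205 (chr1:174031756-174032005, minus strand): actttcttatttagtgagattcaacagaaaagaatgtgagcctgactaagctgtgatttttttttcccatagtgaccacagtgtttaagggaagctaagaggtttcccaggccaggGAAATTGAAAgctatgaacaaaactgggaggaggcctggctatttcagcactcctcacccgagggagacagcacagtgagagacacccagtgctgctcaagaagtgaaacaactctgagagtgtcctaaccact
Ifi207 (chr1:173741810-173742059, minus strand): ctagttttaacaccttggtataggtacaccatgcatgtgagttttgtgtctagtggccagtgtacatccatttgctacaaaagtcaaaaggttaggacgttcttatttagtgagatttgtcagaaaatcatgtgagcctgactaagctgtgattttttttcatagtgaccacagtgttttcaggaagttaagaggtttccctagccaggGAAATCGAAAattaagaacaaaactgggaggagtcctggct
Ifi206 (chr1:173491319-173491568, minus strand): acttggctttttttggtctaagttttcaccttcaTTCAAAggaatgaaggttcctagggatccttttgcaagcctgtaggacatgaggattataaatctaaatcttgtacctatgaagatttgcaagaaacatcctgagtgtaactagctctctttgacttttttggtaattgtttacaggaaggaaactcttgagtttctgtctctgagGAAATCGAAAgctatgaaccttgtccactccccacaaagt
Slamf8 (chr1:172590569-172590818, minus strand): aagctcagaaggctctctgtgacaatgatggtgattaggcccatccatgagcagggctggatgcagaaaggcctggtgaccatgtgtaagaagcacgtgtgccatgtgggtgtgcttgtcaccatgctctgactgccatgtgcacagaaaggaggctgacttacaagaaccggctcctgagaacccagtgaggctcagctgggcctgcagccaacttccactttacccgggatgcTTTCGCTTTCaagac
Gm12185 (chr11:48927183-48927432, minus strand): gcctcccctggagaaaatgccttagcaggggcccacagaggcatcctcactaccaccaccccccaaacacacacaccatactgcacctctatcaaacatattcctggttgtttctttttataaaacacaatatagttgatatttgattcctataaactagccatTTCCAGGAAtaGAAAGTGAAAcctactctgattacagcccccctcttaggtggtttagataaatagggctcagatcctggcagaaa
Serpina3g (chr12:104235897-104236146, plus strand): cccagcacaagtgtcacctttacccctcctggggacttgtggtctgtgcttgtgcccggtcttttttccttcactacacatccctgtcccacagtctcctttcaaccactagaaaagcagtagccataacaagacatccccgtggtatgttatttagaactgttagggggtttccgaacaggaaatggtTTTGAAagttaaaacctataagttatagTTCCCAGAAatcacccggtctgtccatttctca
Ifi205, Ifi207 and Ifi206, neighbours of one family, each hold an ISRE match on the gene's strand. That of Slamf8 reads on the other strand, close to the start. Gm12185 holds a GAS match and an ISRE match side by side, while Serpina3g holds a GAS match near the start. Irf4, with the largest change of all, holds none of the 4 motifs in this window. Of the 20 largest rises, 4 hold a GAS match and 5 an ISRE match, so most hold neither.

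For the falls, the windows of Top2a, Cdk1 and Fbxo5 are shown because each holds several CCAAT boxes, known from promoters of genes transcribed in dividing cells.
Top2a (chr11:99024190-99024439, minus strand): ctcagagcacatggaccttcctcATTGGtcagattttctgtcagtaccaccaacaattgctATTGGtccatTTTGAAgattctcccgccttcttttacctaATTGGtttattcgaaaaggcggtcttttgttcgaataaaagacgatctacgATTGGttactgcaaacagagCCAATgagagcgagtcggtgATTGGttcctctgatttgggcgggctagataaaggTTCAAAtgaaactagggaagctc
Cdk1 (chr10:69352913-69353162, minus strand): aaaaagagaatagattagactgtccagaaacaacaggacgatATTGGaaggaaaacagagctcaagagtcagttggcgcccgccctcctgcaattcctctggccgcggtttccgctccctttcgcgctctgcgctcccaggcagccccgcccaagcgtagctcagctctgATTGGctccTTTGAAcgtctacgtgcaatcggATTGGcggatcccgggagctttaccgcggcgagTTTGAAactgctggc
Fbxo5 (chr10:5805466-5805715, minus strand): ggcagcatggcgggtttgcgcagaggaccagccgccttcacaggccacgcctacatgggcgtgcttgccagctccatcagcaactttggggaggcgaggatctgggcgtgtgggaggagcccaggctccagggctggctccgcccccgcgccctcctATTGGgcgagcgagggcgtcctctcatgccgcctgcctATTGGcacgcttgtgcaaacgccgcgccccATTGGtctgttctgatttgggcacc
Top2a and Cdk1 each hold CHR matches besides their CCAAT boxes, and Fbxo5 holds CCAAT boxes alone. Of the 20 largest falls 18 have a window, and 11 of these hold a CCAAT box. The upstream part of Birc5, a mitosis gene, holds no match to any of these motifs. Windows here cover 250 bases before and 50 after the start, and one gene can have several. An ISRE match occurred in 3.44% of all 32851 windows of the table and in 3.51% of those of genes tested. The share was 16.5% of 115 windows of genes that rose and 1.77% of 113 windows of genes that fell. For GAS matches the shares were 8.30% of all windows, 7.14% of genes tested, 12.2% of rises and 6.19% of falls. CCAAT occurred in 37.4% of all windows, 36.04% of those of genes tested, 27.0% of rises and 47.8% of falls. TTTGAA occurred in 17.9% of all windows, 11.1% of those of genes tested, 13.9% of rises and 18.6% of falls. Its share among falls was thus near that of all windows but above that of genes tested. Motif matches describe letters in these windows and do not show that a factor binds there.

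Irf4 encodes a transcription factor of the interferon regulatory family, best known from lymphocytes and plasma cells. It read 4.60 and 4.95 at 0 h and 8.45, 8.13 and 8.41 at 24 h. Both 0 h arrays lay below the array median and all 24 h arrays well above it. The rise was 3.55 ± 0.16 (SE; adjusted p = 0.000124), 11.8-fold, and all 11 of its probe sets were higher. Background was not measured, so the size of a change that starts below the array median is uncertain. The call held whichever array was left out, with an adjusted p of at most 0.00813. Because J558L is a plasmacytoma and plasma cells express Irf4, the other plasma cell markers were read beside it. Xbp1 changed by 0.08, Sdc1 by 0.03 and Prdm1 by -0.16, none past the test. All 3 lay above the median of every array, Xbp1 at 10.94 to 11.11, Prdm1 at 9.39 to 9.66 and Sdc1 at 6.52 to 6.99. Cd79b, a B cell receptor component that plasma cells can keep, read 4.80 and 5.25 at 0 h and 5.79, 5.86 and 5.91 at 24 h, higher at 24 h but below every array median and so not tested. Of the 9 plasma cell markers on the table, 5 lay below the median of every array, Ighm among them at 5.09 to 5.28. The mean of the 9, Irf4 included, was 6.25 and 6.33 at 0 h and 6.83, 6.78 and 6.70 at 24 h. Because it holds Irf4 itself, that mean is no reading apart from the Irf4 call. Tnfrsf13b, Slamf7, Derl3 and Ighm, all below the filter, changed by -0.04, 0.16, -0.09 and -0.01. A part of plasma cell RNA in the Irf4 signal was not tested. In MCA313 tumours Irf4 was at 4.86 ± 0.72 (SD, n = 3) at 0 h and 8.49 ± 0.02 (SD, n = 2) at 24 h.

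The other regulators of the pathway moved less. Irf1, the first-wave transcription factor of IFNγ signalling, read 9.67 and 9.92 at 0 h and 10.70, 10.45 and 10.70 at 24 h. No 24 h array reached down to the 0 h arrays, and the rise was 0.82 ± 0.14 (adjusted p = 0.0163). Stat2, a transcription factor of type I interferon signalling, rose by 0.63 ± 0.13 (adjusted p = 0.0274). Stat5b, which transmits growth hormone and cytokine signals, rose by 0.75 ± 0.11 (adjusted p = 0.00978). Socs3, a feedback inhibitor of cytokine receptors, rose by 0.51 (adjusted p = 0.0499). Of 13 genes of the list of receptor, STAT, IRF and SOCS genes on the table, 12 passed the filter and 5 rose, with none lower. Irf4 passed the filter through the 24 h arrays alone and so had to be higher. The median of the 12 was 0.28, beside -0.03 for all genes tested, and without regard to the filter 10 of 13 had a higher mean at 24 h, with a median of 0.26. Stat3, Stat5a and Stat6 changed by 0.26, 0.08 and 0.16 without passing the test. In the fit without 0 h replicate 1, only Irf4 of the 5 kept its call, with Irf1 at an adjusted p of 0.124, Stat2 at 0.159 and Stat5b at 0.0786. With 0 h replicate 2 removed, these were 0.0596, 0.0875 and 0.0528. Stat2 passed in none of the 5 fits that left out an array.

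Every tested member of the Ifi200 and GTPase lists rose, and the Serpina3 and Schlafen lists rose in part. The Ifi200 family encodes proteins with HIN domains, several of which sense DNA in the cytosol or act in the nucleus. Ifi205 read 6.59 and 7.13 at 0 h and 10.31, 10.54 and 10.30 at 24 h. The 3 arrays at 24 h lay close together and far above both 0 h arrays. Its rise of 3.52 ± 0.18 (adjusted p = 0.000213) was 11.5-fold. Ifi207 read 6.67 and 6.11 at 0 h and 8.97, 8.65 and 8.68 at 24 h, a rise of 2.38 ± 0.20 (adjusted p = 0.00172). Its groups were also far apart. Ifi206 rose by 1.73, Ifi203 by 1.65, Ifi209 by 1.55, Ifi213 by 1.38, Ifi211 by 1.31, Ifi204 by 1.16 and Mndal by 0.96. All 9 members that passed the filter rose, 1 of them having passed through the 24 h arrays alone. All 12 members on the table had a higher mean at 24 h, where 2483 of all 5109 genes did. The 3 below the filter were Ifi208 with a change of 1.43, Aim2 with 0.15 and Ifi202b with 0.14. Members of the family are similar in sequence, so probe sets may read more than one of them. After leaving out 0 h replicate 1, the number that rose was 5, and without 0 h replicate 2 it was 4. Ifi205, Ifi207 and Ifi211 passed in all 5 such fits.

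Interferon-inducible GTPases, which attack vacuoles that hold pathogens, were represented by the immunity-related family. Gm12250 read 10.57 and 10.35 at 0 h and 12.07, 11.94 and 12.09 at 24 h. The groups did not overlap, and the rise was 1.57 ± 0.13 (adjusted p = 0.00172), 2.97-fold. Igtp rose by 1.14, Irgm1 by 1.11, Irgm2 by 0.96 and Ifi47 by 0.70. So all 5 members on the table rose, and their median was 1.11. Gm12185 and Gm5431, predicted genes outside the list and among the 20 largest rises, rose by 1.59 and 2.03. Igtp read 10.57 and 10.58 at 0 h and 11.80, 11.49 and 11.85 at 24 h, so its 0 h arrays were nearly equal. Without 0 h replicate 1 only Gm12250 of the 5 kept its call, and Igtp, Irgm1 and Irgm2 had adjusted p of 0.0728, 0.0533 and 0.0696. When 0 h replicate 2 was left out, the count was 3, with Igtp at 0.0564. Gm12250 and Irgm2 have 2 probe sets each.

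Sp140, a chromatin reader of nuclear bodies and an interferon-induced gene, read 5.94 and 5.39 at 0 h and 7.82, 8.27 and 8.39 at 24 h. The 0 h arrays lay below the array median and the 24 h arrays above it. Sp140 thus passed the filter through the 24 h arrays alone and had to be higher. The filter stayed the same in fits that left out an array. Its rise was 2.49 ± 0.23 (adjusted p = 0.00231). Sp100, which organises nuclear bodies, rose by 0.56 ± 0.12 (adjusted p = 0.0274). The 2 other members on the table did not pass the filter and had changes of 0.08 and 0.61. Sp100 lost its call in each fit that left out an array, with adjusted p of 0.0628 to 0.116, whereas Sp140 kept it in all 5.

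The Serpina3 genes encode secreted inhibitors of serine proteases, several of which are induced by cytokines in mice. Serpina3g read 9.02 and 9.70 at 0 h and 11.38, 11.18 and 11.84 at 24 h. Its groups were well separated, with a rise of 2.11 ± 0.26 (adjusted p = 0.0062). Serpina3f read 8.96 and 9.24 at 0 h and 11.07, 10.85 and 11.08 at 24 h, a rise of 1.90 ± 0.14 (adjusted p = 0.00154). They are close copies, so their probe sets may share signal. Of 10 members on the table, 3 passed the filter; the third, Serpina3n, changed by -0.63 (adjusted p = 0.454), though without 24 h replicate 1 the list held 1 fall. Serpinb6b, an intracellular protease inhibitor outside the list, rose by 1.66 ± 0.20 (adjusted p = 0.00551). It read 5.93 and 6.42 at 0 h, below the array medians, so it passed the filter through the 24 h arrays alone and had to be higher. In the fit without 0 h replicate 1, the adjusted p of Serpina3g was 0.0696 and that of Serpinb6b 0.0656, while Serpina3f kept its call in all 5 fits.

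The Schlafen genes, which restrain growth of T cells and of viruses, rose in part. Slfn2 rose by 0.92 ± 0.13 (adjusted p = 0.00791) and Slfn5 by 0.68 ± 0.12 (adjusted p = 0.0185). Slfn4 with 0.67 and Slfn3 with 0.61 did not pass the test. Of 9 members on the table, 6 passed the filter and 2 rose, and their median was 0.64. Neither Slfn2 nor Slfn5 kept its call without 0 h replicate 1 (adjusted p = 0.0696 and 0.0786) or without 0 h replicate 2 (0.0624 and 0.0914).

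Of 9 antiviral genes tested that type I interferon also induces, 4 rose and 1 fell. Dhx58, which encodes the RNA sensor LGP2, read 8.35 and 8.43 at 0 h and 9.43, 9.52 and 9.56 at 24 h. The groups were tight and did not overlap. Its rise of 1.12 ± 0.11 (adjusted p = 0.00302) held in all 5 fits that left out an array. Rsad2, the gene of viperin, rose by 1.04 ± 0.15 (adjusted p = 0.0081). Cmpk2, its neighbour and a mitochondrial nucleotide kinase, rose by 0.57 and Tor3a by 0.53. Ifi27, a mitochondrial protein also induced by type I interferon, went the other way. It read 11.04 and 10.95 at 0 h and 10.21, 10.03 and 10.05 at 24 h. No 24 h array came near the 0 h arrays, and all 8 probe sets were lower, with a fall of 0.90 on the log2 scale (change -0.90 ± 0.12, adjusted p = 0.0071). The list had 11 members on the table, and the median of the 9 tested was 0.53. Xaf1, Trim25, Ifi35 and Lgals3bp changed by 0.58, 0.43, 0.38 and 0.25 without passing the test. With 0 h replicate 1 removed, Dhx58 alone kept its call, with Rsad2 at 0.0843, Cmpk2 at 0.144 and Ifi27 at 0.0721. After leaving out 0 h replicate 2, Rsad2 was at 0.0528 and Cmpk2 at 0.0891.

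Enzymes tied to IFNγ rose together with one gene of antigen processing. Nampt, the rate-limiting enzyme of NAD salvage, read 8.54 and 8.13 at 0 h and 9.95, 9.97 and 9.90 at 24 h. All 12 of its probe sets were higher. Its rise of 1.61 ± 0.15 (adjusted p = 0.00242), 3.04-fold, held in all 5 fits that left out an array. Wars, the tryptophanyl-tRNA synthetase, rose by 1.04 ± 0.11 (adjusted p = 0.00415), and Upp1, uridine phosphorylase, by 0.82 ± 0.12 (adjusted p = 0.00831). Psme2, a subunit of the proteasome activator PA28, rose by 1.82 ± 0.29 (adjusted p = 0.0123), read from 1 probe set. Psme3, a paralog that forms another activator, changed by -0.11. Nos2, the inducible nitric oxide synthase, read 8.42 and 8.63 at 0 h and 9.55, 9.37 and 8.99 at 24 h. The 24 h arrays spread widely but stayed above both 0 h arrays, with a rise of 0.78 ± 0.18 (adjusted p = 0.043). Of 9 members on the table, 6 passed the filter and 5 rose. Without 0 h replicate 1 Nampt alone kept its call, with Wars at 0.0533, Upp1 at 0.0657, Psme2 at 0.131 and Nos2 at 0.244. When 0 h replicate 2 was left out, Upp1 was at 0.0609, Psme2 at 0.0717 and Nos2 at 0.129.

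Among genes of immune receptors and their ligands, 3 stood out by size. Slamf8, a SLAM family receptor known from macrophages, read 6.95 and 6.88 at 0 h and 10.33, 10.03 and 10.23 at 24 h. The groups lay far apart and each was tight. The rise of 3.28 ± 0.13 (adjusted p = 0.000114) was 9.71-fold and held in all 5 fits that left out an array. Tnfsf18, which encodes the ligand of the T cell receptor GITR and is known from endothelium, read 4.56 and 5.21 at 0 h and 7.37, 8.11 and 6.57 at 24 h. Its 24 h arrays spread over more than 1 unit but stayed above the 0 h arrays, and the rise was 2.47 ± 0.42 (adjusted p = 0.0152). Il18rap, the accessory chain of the interleukin 18 receptor, rose by 1.53 ± 0.31 (adjusted p = 0.0274) from 4.90 and 5.15 to 7.11, 6.60 and 5.94. Both Tnfsf18 and Il18rap started below the array median. Of 24 genes of this list on the table, 6 passed the filter, 2 of them (both rises) through the 24 h arrays alone, and the other 18 had changes between -0.17 and 0.40. Tnfsf18 had an adjusted p of 0.157, 0.0805 and 0.0618 without 0 h replicate 1, 0 h replicate 2 and 24 h replicate 1. Il18rap passed in 1 of the 5 fits only, the one without 24 h replicate 3, and reached 0.215 without 0 h replicate 1.

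Markers of leukocytes, which also express Slamf8 and Irf4, were read in the same arrays. Of 15 on the table, 13 lay below the median of every array, among them Ptprc (CD45) at 4.71 to 5.42 and Lyz2 at 4.56 to 5.38. Cd68 and Fcer1g lay above it in all 5, with changes of 0.45 and -0.18 that did not pass the test. The mean of the 15 markers was 5.51 and 5.50 at 0 h and 5.51, 5.49 and 5.50 at 24 h. Single markers moved both ways within it, Cd79b by 0.83 and Lyz2 by -0.66. Most of the 15 lay below the median, where background was not measured, so this mean cannot show the share of leukocytes. Of 11 markers of pericytes and fibroblasts 2, Col1a1 and Rgs5, lay above the median of every array, with changes of -0.18 and 0.52, and 4 lay below it in all. The mean of those 11 was 5.89 and 5.85 at 0 h and 6.18, 5.89 and 5.90 at 24 h.

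**Figure D2:**
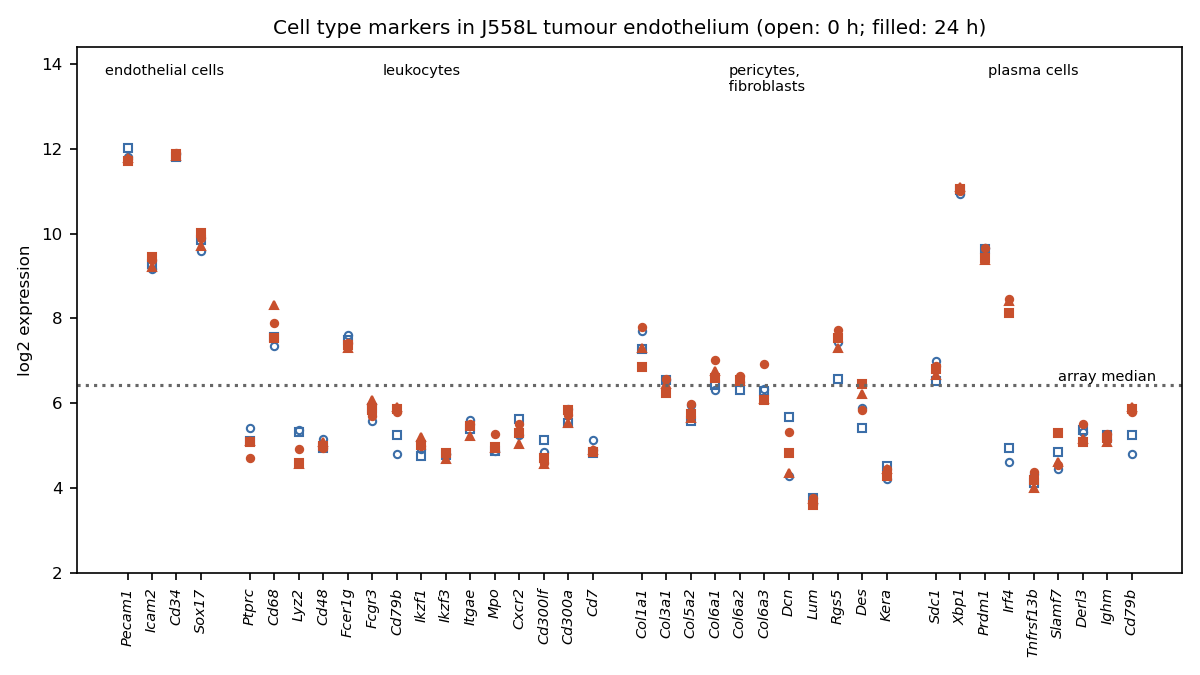
Log2 expression (y axis) of each cell type marker on the table in the 5 arrays, with open symbols for 0 h, filled symbols for 24 h and the dotted line at the array median. Endothelial markers lie far above the line, 13 of 15 leukocyte markers below it, and among plasma cell markers Irf4 and, below the line, Cd79b are higher at 24 h.

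The chemokines on the table gave no call. Ccl5, which attracts T cells, changed by 0.92 ± 0.25 (adjusted p = 0.063), and Cxcl16 by 0.68 (adjusted p = 0.0768). Ccl8 changed by -1.01 ± 0.65 (adjusted p = 0.384), with 24 h replicate 1 at 4.86 and the other 24 h arrays at 6.92 and 7.22. Of the 14 on the table, 10 did not pass the filter, and without 0 h replicate 2 the list held 1 rise.

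Nppc and Alox12 were among the 20 largest rises. Nppc, which encodes C-type natriuretic peptide, a relaxant of vessels, read 6.14 and 6.75 at 0 h and 8.10, 8.14 and 8.04 at 24 h. The 24 h arrays agreed closely, and the rise was 1.65 ± 0.19 (adjusted p = 0.00441). Its 4 probe sets did not agree: 3 were higher, with changes from -0.22 to 5.82 and a median of 0.49. The call was lost with the median over probe sets (0.55, adjusted p = 0.205) and with the brightest one (0.17, adjusted p = 0.659). Alox12, a 12-lipoxygenase, read 7.11 and 6.65 at 0 h and 8.06, 8.80 and 8.67 at 24 h, a rise of 1.63 ± 0.25 (adjusted p = 0.00978). All 16 of its probe sets were higher. Alox12 and Nos2 were the 2 rises among 7 tested genes of vascular tone, coagulation and complement control, whose median was 0.05. Edn1 (endothelin 1) changed by -0.12 and Ace by -0.49, neither past the test. Id2, an inhibitor of basic helix-loop-helix transcription factors, rose by 1.04 ± 0.15 (adjusted p = 0.00831). Ier5 and Gadd45b, stress-response genes, rose by 0.56 and 0.82 (adjusted p = 0.0426 and 0.0433). Their list of 13 immediate-early and dissociation stress genes had 11 with a higher mean at 24 h and a median of 0.35, with Fos at 0.35 and Atf3 at 0.47, neither past the test. The part of tissue digestion in these values was not tested. In the fit without 0 h replicate 1, Alox12 was at an adjusted p of 0.0728, Id2 at 0.0721, Gadd45b at 0.188 and Ier5 at 0.204. With 0 h replicate 2 removed, Alox12 was at 0.0914 and Id2 at 0.0717. Nppc kept its call in all 5 fits.

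The rest of the 20 largest rises belong to none of the lists. Zup1, a deubiquitinase, read 7.46 and 7.54 at 0 h and 8.91, 8.84 and 9.27 at 24 h, a rise of 1.51 ± 0.16 (adjusted p = 0.00302). Its 13 probe sets were all higher. Cdca7l, the gene of a nuclear protein that binds MYC, read 7.35 and 5.96 at 0 h and 8.18, 8.23 and 8.16 at 24 h. Here the 0 h arrays differed more from each other than replicate 1 did from the 24 h arrays, and the rise was 1.53 ± 0.36 (adjusted p = 0.0426). The change was 2.22 without 0 h replicate 1 and 0.83 without 0 h replicate 2. Without 24 h replicates 1, 2 and 3 in turn its adjusted p was 0.121, 0.109 and 0.0808. Gm11992, a predicted gene, rose by 1.63 ± 0.20 (adjusted p = 0.0062), with 8 of 9 probe sets higher. It read 5.05 and 5.09 at 0 h, passed the filter through the 24 h arrays alone and so had to be higher. After leaving out 0 h replicate 1, it was at 0.077 and Zup1 at 0.0588.

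**Figure D3:**
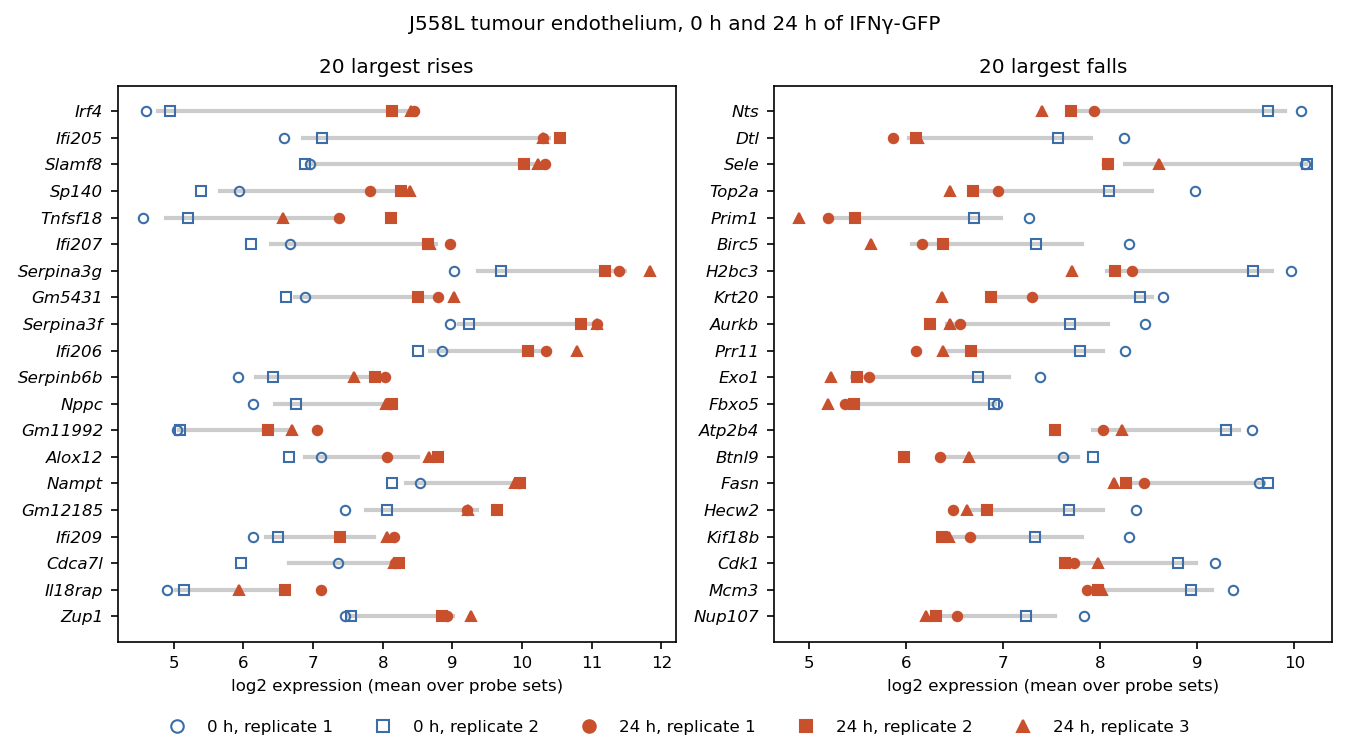
Log2 expression (x axis) of the 20 largest rises (left) and 20 largest falls (right) in each of the 5 arrays, open blue for 0 h and filled red for 24 h, with a grey line joining the group means. In each gene shown the 24 h arrays lie on one side of both 0 h arrays, and Cdca7l has the widest gap between its 0 h arrays.

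Genes of cell division fell. Top2a, the topoisomerase that untangles chromosomes, read 8.98 and 8.09 at 0 h and 6.95, 6.69 and 6.45 at 24 h. Replicate 1 at 0 h was the highest array, yet both 0 h arrays exceeded all 24 h arrays. The change was -1.84 ± 0.27 (adjusted p = 0.00939), a level 0.28 times that at 0 h, and all 32 probe sets were lower. Cdk1, the kinase that starts mitosis, read 9.18 and 8.80 at 0 h and 7.73, 7.64 and 7.98 at 24 h. Its groups did not overlap, with a change of -1.21 ± 0.17 (adjusted p = 0.00791). Aurkb and Birc5, which encode Aurora B and survivin of the chromosomal passenger complex, changed by -1.66 ± 0.23 (adjusted p = 0.00798) and -1.76 ± 0.32 (adjusted p = 0.02). Fbxo5, which encodes EMI1, an inhibitor of the anaphase-promoting complex, read 6.94 and 6.91 at 0 h and 5.37, 5.46 and 5.20 at 24 h. It dropped from above to below the array median, with a change of -1.58 ± 0.13 (adjusted p = 0.00172). Fbxo5 thus passed the filter through the 0 h arrays alone and had to be lower. Kif18b, a mitotic kinesin, and Cenpw, a centromere protein, changed by -1.32 and -0.87 and Sgo2a and Zwint by -0.71 and -0.56. Kif18b passed in 1 of the 5 fits that left out an array, with -0.83 (adjusted p = 0.0929) without 0 h replicate 1, and turned to 0.18 with the brightest probe set. Of 21 mitosis genes on the table, 11 passed the filter, 9 fell and none rose. Because 3 of the 9 passed the filter through the 0 h arrays alone, and so had to be lower at 24 h, the list was also read without the filter. A lower mean at 24 h was found in 20 of the 21, against 2619 of all 5109 genes, and the median change was -0.91 beside -0.0058. Pttg1 (securin) was the exception with 0.28 (adjusted p = 0.255).

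The genes of DNA replication showed the same direction. Dtl, the substrate receptor of a ubiquitin ligase that acts in S phase, read 8.25 and 7.57 at 0 h and 5.87, 6.10 and 6.13 at 24 h. All 24 h arrays were below the array median and both 0 h arrays above it. Dtl thus passed the filter through the 0 h arrays alone and had to be lower. Its change was -1.87 ± 0.21 (adjusted p = 0.00441). Prim1, the catalytic subunit of primase, changed by -1.79 ± 0.22 (adjusted p = 0.0062) and its partner Prim2 by -1.13 (adjusted p = 0.0379). Mcm3 and Mcm6, subunits of the replicative helicase, changed by -1.20 ± 0.16 (adjusted p = 0.0071) and -0.92 (adjusted p = 0.0252). Rrm2 and Tk1, which supply deoxynucleotides, changed by -1.05 and -0.76. Timeless, a fork protection factor, rose by 0.65 ± 0.12 (adjusted p = 0.0205). It read 7.07 and 6.89 at 0 h and 7.64, 7.69 and 7.56 at 24 h, and the list held this rise in 1 of the 5 fits that left out an array. Cdc6 and Rpa1, with -0.96 and -1.21, did not pass the test. Of 13 members on the table, 12 passed the filter, 7 fell and 1 rose, and 5 of the 7 had passed through the 0 h arrays alone. Without regard to the filter, 12 of 13 had a lower mean at 24 h, with a median of -0.96.

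Falls were also found in repair and histone genes. Exo1, an exonuclease of mismatch repair and recombination, changed by -1.61 ± 0.22 (adjusted p = 0.0071) and Parp1, a sensor of DNA breaks, by -0.80 ± 0.15 (adjusted p = 0.02). These were the 2 falls among 6 repair genes tested, and Exo1 passed the filter through the 0 h arrays alone, so it had to be lower. Of 16 genes of recombination and fork repair on the table, 14 had a lower mean at 24 h. The histone genes H2bc3 and H2ac10 changed by -1.70 and -1.05 (adjusted p = 0.0062 and 0.0163), the latter read from 1 probe set, while H1f2 changed by 0.12. Of the 12 histone genes on the table, 8 had a lower mean at 24 h, with a median of -0.19, and H4c8, below the filter, changed by 0.61. Histone genes are near copies of each other, so their probe sets may share signal. Nup107, a nuclear pore protein, changed by -1.19, and Prr11, a gene of cell cycle progression, by -1.64 ± 0.21 (adjusted p = 0.00671).

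The number of these calls depended on the 0 h arrays. The filter stayed as set on all arrays, so Fbxo5 and Dtl, which passed it through 0 h arrays alone, had to be lower in every fit. Without 0 h replicate 1 1 of the mitosis genes (Fbxo5) and 1 of the replication genes (Dtl) passed. When 0 h replicate 2 was left out, 7 of each did. In the fit without 0 h replicate 1, the adjusted p was 0.0696 for Top2a, 0.077 for Cdk1, 0.0533 for Aurkb, 0.127 for Birc5, 0.0696 for Prim1, 0.0579 for Mcm3, 0.0657 for Exo1, 0.133 for Parp1, 0.077 for H2bc3 and 0.0744 for Prr11. The list medians without it were -0.83 for mitosis and -0.64 for replication, beside -1.21 and -1.01 over the members tested with all arrays. In fits without one of the 24 h arrays, 4 or 5 mitosis genes and 3 to 8 replication genes fell.

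**Figure D4:**
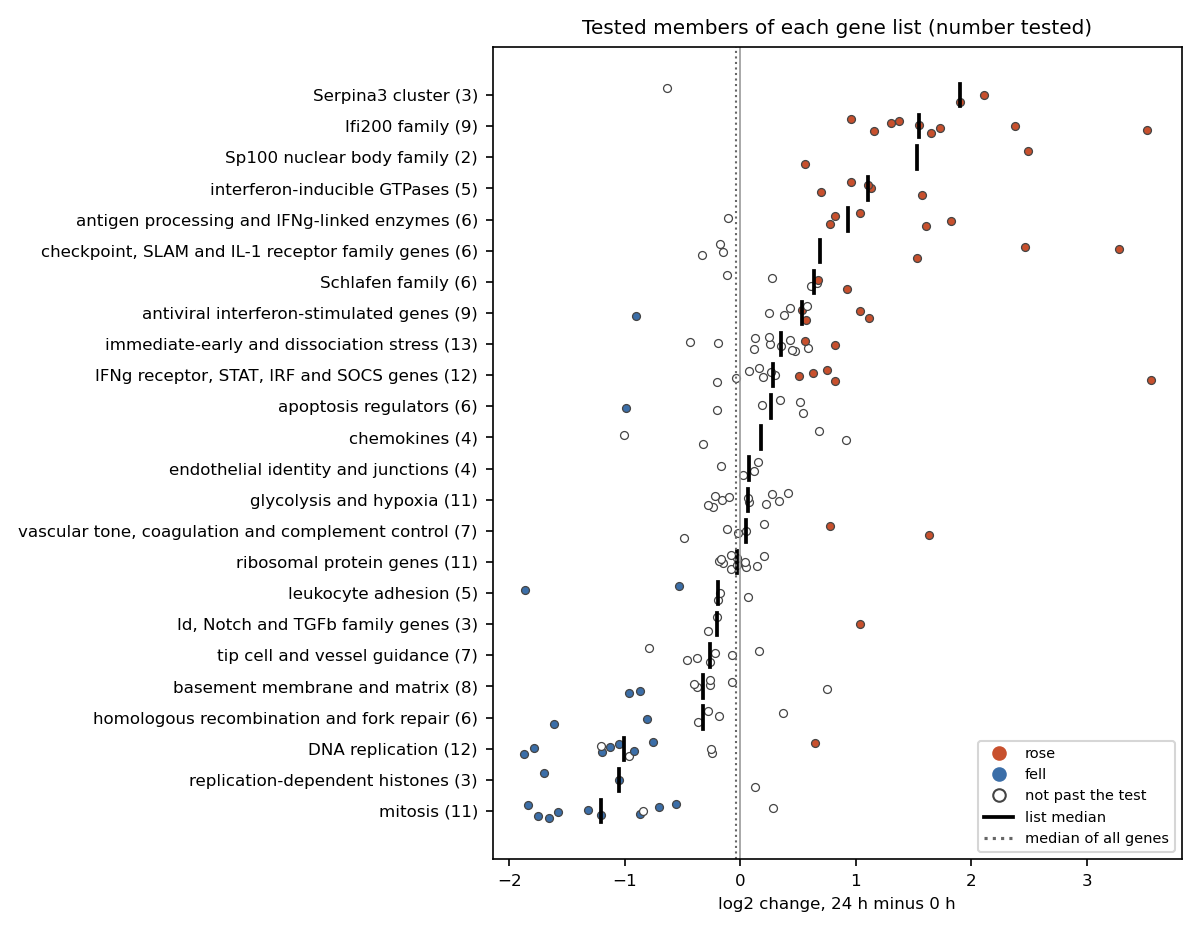
Log2 change (24 h minus 0 h, x axis) of the tested members of each of the 24 gene lists, with a bar at the list's median and a dotted line at the median of all genes tested. Ifi200 and GTPase members all lie right of 0, most mitosis and replication members left of it, and ribosomal and endothelial identity genes lie around it.

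Nts, which encodes the peptide neurotensin, showed the largest fall of all genes tested. It read 10.07 and 9.73 at 0 h and 7.93, 7.70 and 7.40 at 24 h. The arrays of the 2 times were widely separated, and all 6 probe sets were lower. The change was -2.22 ± 0.19 (adjusted p = 0.00182), a level 0.215 times that at 0 h, and it held in all 5 fits that left out an array.

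E-selectin and P-selectin, on which leukocytes roll along activated endothelium, were both lower. Sele, the gene of E-selectin, read 10.11 and 10.13 at 0 h and 8.07, 8.08 and 8.61 at 24 h. Both 0 h arrays agreed, and all 24 h arrays lay far below them. All 13 probe sets were lower, and the change was -1.86 ± 0.19 (adjusted p = 0.003), a level 0.275 times that at 0 h. Selp read 11.07 and 11.12 at 0 h and 10.52, 10.49 and 10.68 at 24 h, a smaller change of -0.53 ± 0.12 (adjusted p = 0.0396). Madcam1, Ackr1 and F11r changed by -0.18, -0.19 and 0.07 without passing the test. Sele had an adjusted p of 0.0574 without 0 h replicate 1 and passed in the other 4 fits. Selp passed only without 24 h replicate 3, with 0.118 to 0.144 in the other 4.

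Matrix and vessel guidance genes gave few calls. Col18a1, the collagen from which endostatin is cut, read 9.71 and 9.75 at 0 h and 8.82, 8.87 and 8.61 at 24 h. The groups were tight and apart, with a change of -0.97 ± 0.13 (adjusted p = 0.0071). Fbln5, an elastic fibre protein, changed by -0.87 ± 0.16 (adjusted p = 0.0204). The laminin genes Lama4, Lamb1 and Lamc1 changed by -0.38, -0.26 and -0.40, and Fn1 by 0.75 (adjusted p = 0.101), none past the test. Of 7 tip cell and guidance genes tested none passed. Unc5b, a netrin receptor, changed by -0.79 ± 0.22 (adjusted p = 0.0736) and Flt4, the receptor VEGFR3, by -0.46 ± 0.14 (adjusted p = 0.0894). Without 24 h replicate 3 Unc5b was at 0.0497. Col18a1 was at 0.0696 and 0.0567 without 0 h replicates 1 and 2. Fbln5 was at 0.0809 without 0 h replicate 2 and at 0.0596 and 0.0716 without 24 h replicates 1 and 2.

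The remaining falls among the 20 largest, with Bok, belong to different functions. Fasn, the fatty acid synthase, read 9.64 and 9.73 at 0 h and 8.45, 8.27 and 8.14 at 24 h. Of its 40 probe sets 39 were lower, and the change of -1.40 ± 0.13 (adjusted p = 0.00274) held in all 5 fits that left out an array. Atp2b4, a plasma membrane calcium pump, changed by -1.50 ± 0.22 (adjusted p = 0.00855) and all 16 probe sets were lower. Btnl9, a butyrophilin-like gene, and Hecw2, a ubiquitin ligase, changed by -1.45 and -1.37. Krt20, a keratin known from gut epithelium, changed by -1.68 ± 0.26 (adjusted p = 0.0105). Bok, a member of the BCL2 family, was the only call of 6 tested apoptosis regulators and changed by -0.99 ± 0.12 (adjusted p = 0.00551). Glycolysis and hypoxia genes gave no call among 11 tested, and neither did 11 ribosomal protein genes, whose medians were 0.07 and -0.03. With 0 h replicate 1 removed, the adjusted p was 0.101 for Atp2b4, 0.0759 for Btnl9 and Hecw2, 0.124 for Krt20 and 0.0607 for Bok. After leaving out 0 h replicate 2, it was 0.0634 for Atp2b4, 0.0843 for Btnl9 and 0.0757 for Krt20.

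Kidney endothelium of J558L-bearing mice was fitted in the same way, on arrays of its own. There 219 of 2414 genes passed (9.07%), 114 higher and 105 lower. Of the 120 genes that rose in tumour endothelium, 112 were tested in kidney, 100 had the same sign and 63 were called higher in both. Of the 111 that fell, 88 were tested there, 68 had the same sign and 18 were called lower in both. Of all genes tested in kidney 46.6% were higher at 24 h. Ifi205 rose by 4.17, Sp140 by 3.02, Slamf8 by 2.29 and Nampt by 1.86 in kidney. Sele changed by 0.08 there, with all 6 arrays between 9.32 and 10.50. Sele's difference of responses, -1.94, had an adjusted p of 0.0677 and so was not shown. The labels do not say whether kidney and tumour came from the same mice.

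The difference of the 2 responses was tested over all 11 arrays, each response being formed within its own separately normalized set. It passed for 21 of 2587 genes (0.812%), 14 with a more positive change in tumour. Irf4 had the largest. Its 3 kidney arrays at 0 h read 4.43 to 4.60 and those at 24 h read 4.28 to 4.82, so the difference was 3.48 ± 0.25 (adjusted p = 5.91e-05). Irf4 entered this test through the tumour arrays at 24 h alone, where it is high. Nppc in kidney was at 6.10 ± 0.19 (SD, n = 3) and 6.07 ± 0.19 (SD, n = 3), with a difference of 1.68 ± 0.26 (adjusted p = 0.023). It lay below the median of every kidney array and so entered this test through tumour arrays alone. Fbxo5 was at 6.58 in kidney at both times, a difference of -1.58 ± 0.25 (adjusted p = 0.0246). Exo1 was below the array medians in kidney at both times, with a difference of -1.72 ± 0.31 (adjusted p = 0.0353). It entered this test through the tumour arrays at 0 h alone, where it is high.

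In the other 6 of the 10 differences with the smallest p the larger change was in kidney. Olfr1396, an olfactory receptor gene, stayed between 3.18 and 3.31 in tumour, below all array medians. In kidney it went from 6.50 ± 0.08 to 4.17 ± 0.17 (SD, n = 3 each). It entered this test through the kidney arrays at 0 h alone, where it is high. Tgfb3, a growth factor of the TGFβ family, was at 5.15 and 5.74 in tumour and 7.55 and 6.23 in kidney, so the difference was 1.91 ± 0.26 (adjusted p = 0.0107). Vtn, Cygb and Prelp, the genes of vitronectin, cytoglobin and a matrix proteoglycan, had differences of 1.27, 1.55 and 1.25, each lower at 24 h in kidney. Serpina3f, outside these 10 but among the 21, rose by 1.90 in tumour and 4.28 in kidney, a difference of -2.38 ± 0.44 (adjusted p = 0.0353). Calhm6 changed by 0.81 in tumour and 2.34 in kidney, a difference of -1.53 ± 0.27 (adjusted p = 0.0353). Tgfb3, Vtn and Calhm6 lay below the median of every tumour array, so they entered this test through kidney arrays alone. When 1 array was left out, the filter stayed as set on all arrays of the test. The count of 21 was 4 without tumour 0 h replicate 1, 10 without tumour 0 h replicate 2, 5, 5 and 6 without tumour 24 h replicates 1, 2 and 3, 5 without kidney 0 h replicate 3 and 9 without kidney 24 h replicate 2. Of the 10, Irf4 and Olfr1396 passed whichever array was left out.

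**Figure D5:**
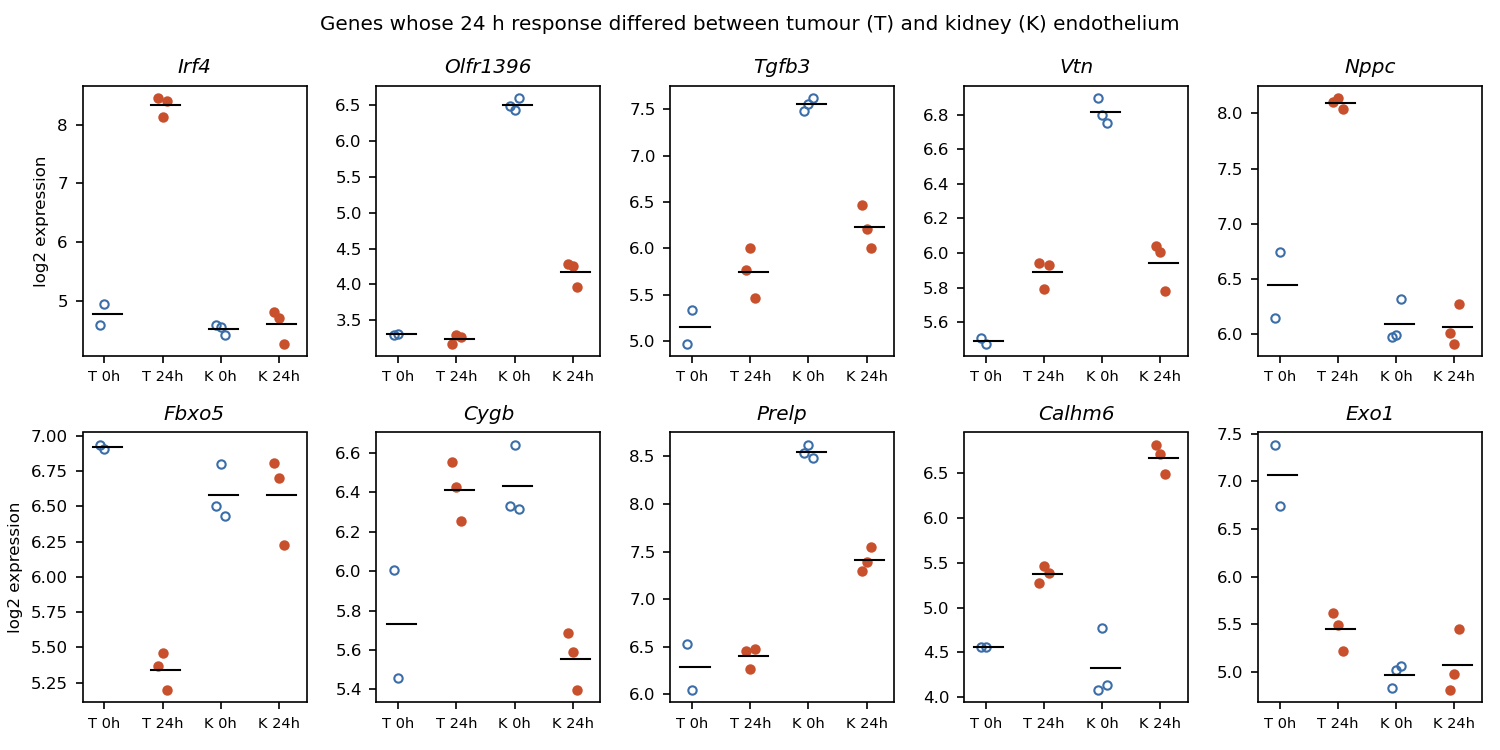
Log2 expression (y axis, scaled for each gene) of the 10 genes with the smallest p for the difference of responses, in tumour (T) and kidney (K) endothelium, with open points for 0 h, filled points for 24 h and bars at group means. Irf4 and Nppc are higher and Fbxo5 and Exo1 lower at 24 h in tumour and near level in kidney, while Olfr1396, Tgfb3, Vtn and Prelp are lower at 24 h in kidney; tumour and kidney arrays were normalized separately, so levels between them are not comparable.

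The same 24 h comparison was made in MCA313 tumours, and 1 gene passed the test of a difference between the responses. In MCA313 endothelium 74 of 2347 genes passed at 24 h (3.15%), 28 higher and 46 lower. Of the 120 rises in J558L tumours 114 were tested there, 109 had the same sign and 23 were called higher in both. Of the 111 falls 106 were tested, 103 had the same sign and 18 were called lower in both. Of all genes tested in MCA313 37.4% were higher, so most genes shared the sign of a fall. Ifi205 rose by 4.01 and Il18rap by 2.04 in MCA313, and Top2a changed by -1.62 and Sele by -1.63, each past the test. The difference of responses passed for 1 of 2471 genes (0.0405%), with 161 at an unadjusted p under 0.05. It was Ctla4, a checkpoint receptor of T cells, which read 4.26 and 4.62 at 0 h and 4.81, 4.94 and 4.71 at 24 h in J558L tumours, below every array median. It entered this test through the MCA313 arrays at 24 h alone, where it is high. In MCA313 it went from 3.81 ± 0.17 (SD, n = 3) to 6.83 ± 0.14 (SD, n = 2), so the difference was -2.64 ± 0.23 (adjusted p = 0.000699). For Irf4 the difference was -0.07 (adjusted p = 0.986), which does not show that the responses are equal. The tumours differ in line, host genotype, the cells that carry the receptor and the form of IFNγ at once, so these cannot be told apart.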

How the data were processed

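Endothelial RNA, about 500 pg per sample, was amplified with the Affymetrix WT Pico kit (12 cycles before transcription) and hybridised, 1 array per sample, per the labels' protocols. The authors deposited log2 values per probe set. The submitters' processing notes name Affymetrix Expression Console and limma; the normalization method is unstated in those sources. Exact values recur between arrays of a set (5.40% to 37.4% of probe sets) and hardly between sets (at most 0.00305%), so the sets appear to have been normalized separately and levels were compared within a set only.

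Of 65535 probe sets 53857 carry 1 gene symbol, 766 several and 10912 none. A gene's value is the mean over its probe sets with that symbol alone. A gene was tested if it exceeded the array's median in at least 2 of the fitted arrays, which 57 genes did through the 24 h arrays alone and 26 through the 0 h arrays alone. The 5 arrays were fitted in limma 3.58.1 (R 4.3.3; lmFit, eBayes, 2-sided), with Benjamini-Hochberg adjustment over all genes tested and a threshold of 0.05. Errors of changes are SE and of levels SD, and every adjusted p is from limma. The few arrays limit the precision. Differences of responses used 11 (kidney) and 10 (MCA313) arrays. On simulated data for the 2310 genes of the J558L tumour comparison 98% of 2-fold and 100% of 4-fold changes were recovered, and 7.04% of calls were unchanged genes. For the differences of responses, 63% (kidney) and 61% (MCA313) of 2-fold changes were recovered, and 97% and 98% of 4-fold changes. The simulated noise was independent for each gene, with no deviation shared by the genes of an array, so recovery on the real arrays was not measured.

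The members, the 24 gene lists and the 6 marker lists were chosen with earlier results of these data known. Named genes are the 20 largest rises and 20 largest falls past the threshold without overlap, with at least 3 probe sets of which at least 2 in 3 moved the same way. Added to these are up to 4 calls per list by smallest p (the 2 largest changes where none passed), 14 check genes, and up to 10 genes per difference. Other members were named after their values were seen. The labels do not say that equal replicate numbers mark shared animals, so numbers were not taken as pairs. Deviations of same-numbered arrays from their group means had r = -0.05 for replicates 1 and -0.02 for replicates 2. The deviations of the 2 arrays at 0 h mirror each other, so these values cannot decide whether arrays were paired. Promoter windows and their printed coordinates are RefSeq's (GRCm38.p6). No source used here names the build of the deposited annotation, so no other gene coordinates are printed. Alternatives varied the filter, the summary over probe sets, the normalization, the variance model, the arrays fitted, the block and each array left out.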

Additional observations from a re-analysis of the deposited data

Results flagged for a closer look

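The difference between the 24 h response of tumour and kidney endothelium passed the test itself for 21 genes. The 10 with the smallest p are given here, with the difference given as tumour minus kidney on the log2 scale. Irf4 differed by 3.48, Nppc by 1.68, Fbxo5 by -1.58 and Exo1 by -1.72, with the larger change in tumour. Olfr1396 differed by 2.27, Tgfb3 by 1.91, Cygb by 1.55, Vtn by 1.27, Prelp by 1.25 and Calhm6 by -1.53, with the larger change in kidney. Irf4, Exo1 and Olfr1396 each passed the filter through 1 group of arrays alone, the one where the gene is high. Irf4 and Olfr1396 each passed under 19 of 20 settings, Tgfb3 under 16 and Vtn under 15. Calhm6 and Exo1 passed under 8 of 20. Between J558L and MCA313 tumours the response of Ctla4 differed by -2.64 (J558L minus MCA313) and passed under 16 of 19 settings. Groups of 2 or 3 arrays are too small for a test of outlying arrays.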

How the results depend on the processing

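All 69 named calls kept their sign without any 1 array, though most lost their call in at least 1 such fit. For genes named for not overlapping, the kept sign was fixed by the selection. The 231 calls of the J558L tumour comparison were 110 without the filter, 115 with the median over probe sets, 45 with the brightest probe set, 135 with probe sets above the array median, 107 with the spread of all 26 arrays, and 28 to 190 without 1 array. Of the calls 51.9% were higher, against 62.7% without the filter, 75.6% with the brightest probe set and 78.6% without 0 h replicate 1. Falls outnumbered rises with the variance trend (331 calls, 159 higher and 172 lower) and with genes of at least 3 probe sets (120 higher, 130 lower). With the replicate block the count was 174 (97 higher, 77 lower), 146 of them among the 231. The arrays share a number only. Settings chosen after seeing the data gave 166 (spread from 11 J558L arrays) and 250 (genes with at least 3 probe sets). The 21 tumour minus kidney differences were 4 with each of the median, brightest and above-median summaries, 36 with array weights, 5 with the replicate block and 4 to 26 without 1 array. The 1 difference from MCA313 was 0 with the stricter filter, the median, the brightest probe set and the variance trend, with 72, 194, 222 and 165 genes at an unadjusted p under 0.05 in limma. It was 2 with the replicate block and 1 to 3 without 1 array. Signs turned with the median for Xbp1 (-0.10), Sdc1 (-0.11) and Prelp (-0.14). With the brightest probe set they turned for Gm11992 (-0.0587), Kif18b (0.18), Sdc1 (-0.0900) and Cd34 (-0.0224), and in the kidney difference for Vtn (-0.0830) and Nppc (-0.16). With probe sets above the median they turned for Sdc1 (-0.00312), Col3a1 (0.0283) and Prelp (-0.0208). Without 1 array the changes ran from -0.20 to 0.261 for Sdc1, -0.00799 to 0.0606 for Cd34 and -0.13 to 0.356 for Prelp, with signs turned for all 3 without 0 h replicate 2 and for Sdc1 without 24 h replicate 1. The cause was not tested. Signal below the array median, where background was not measured, limits the size of changes that start or end there.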
